A study of Mus musculus with 10 samples.

Results

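Complement and coagulation are protease cascades of blood and tissue fluid, described here in white fat taken beside the epididymis of the mouse. The list held 36 genes, chosen by name. A gene was taken where the platform annotation ties a probe set to its symbol alone, and its brightest probe set over all arrays was used. That gave 32 genes out of 18193 tested. C4b has only a probe set that carries a second symbol, and C3, Cfd and C7 have no probe set under their symbols in the annotation used here, so these 4 genes were not analysed here. The tissue came from male C57BL/6J mice, 8 weeks old at the start, which then ate normal chow (CRF-1) or, in the high-fat group, a 60% fat diet, for 8 weeks. Each diet group held 5 mice, with 1 Affymetrix array per mouse, so every p-value rests on variation from mouse to mouse.

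In the complement system, C1q binds immune complexes and dying cells and activates the proteases C1r and C1s, which cleave C4 and C2. Factor B, factor D and properdin run the alternative pathway, which amplifies the cleavage of C3, and the small fragments released act on the receptors C3ar1 and C5ar1 of myeloid cells. Coagulation starts when tissue factor (F3) meets factor VII, which activates factor X, and thrombin then forms fibrin. Plasminogen activators dissolve that fibrin. The liver makes most circulating components, macrophages make C1q and properdin, and fat is known as a site of local complement production. The C1q and TNF related proteins are secreted proteins that share the globular head of C1q.

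Levels are log2 intensities after quantile normalization, and every change is the high-fat mean minus the chow mean on that scale, with the standard error (SE) from limma and a p-value adjusted over all genes by the Benjamini-Hochberg method, with a threshold of 0.05. For a gene's other probe sets the adjustment ran over all probe sets that are not controls. Levels of different genes come from different probes and were not compared with each other. The median intensity per array ran from 17.9 to 27.4 before normalization, and precision is set by having 5 arrays per diet. The adipocyte gene Adipoq was at 12.10 to 13.24 in the 10 arrays, but other adipocyte genes varied more. The mean of 9 adipocyte genes was 8.79 to 10.78 on chow and 10.46 to 10.91 on the high-fat diet. Of the 9, Lep rose by 3.66 (limma, adjusted p = 0.00813) and the other 8 did not pass. Transcripts of other tissues differed between the groups. In chow arrays the mean level of 15 epididymis and testis genes was 9.17 ± 2.05 (SD, n = 5) and in high-fat arrays 4.88 ± 0.55 (SD, n = 5), that of 8 epithelial genes 8.65 ± 1.63 and 4.18 ± 0.32, and that of 7 hepatocyte genes 10.63 ± 1.74 and 7.96 ± 0.91. For the actin control, the ratio of 5' to 3' signal, which reflects RNA quality, was 0.272 to 0.456 in chow arrays and 0.557 to 0.643 in high-fat arrays. The part of these differences in the results below was not tested, although some fits hold a list mean as a covariate. The epididymis and testis mean was 7.22 to 12.02 on chow and 4.01 to 5.48 on the high-fat diet. With no overlap, that covariate cannot be told apart from diet. The SE grew with it, for C1qa from 0.18 to 0.34 and for F7 from 0.47 to 0.89. A call lost with it therefore settles nothing about these tissues.

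Promoter sequence is shown for the genes whose change was largest or whose neighbour behaved differently. RefSeq gives C1qb, C1qc and C1qa as direct neighbours, and likewise F7 and F10, and Cfb and C2. The RefSeq promoter table (GRCm38.p6) covers 300 bases around each start site, most of them upstream, and matched 22 of the 32 genes, which leaves out C1qa, Cfb and C2. Capitals mark GAGGAA, the core bound by the myeloid factor PU.1, and AANNGAAA, the core bound by interferon regulatory factors, searched on both strands. The motifs were picked with the results known, and the matches printed here do not overlap.

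C1qb (chr4:136886151-136886450, minus strand): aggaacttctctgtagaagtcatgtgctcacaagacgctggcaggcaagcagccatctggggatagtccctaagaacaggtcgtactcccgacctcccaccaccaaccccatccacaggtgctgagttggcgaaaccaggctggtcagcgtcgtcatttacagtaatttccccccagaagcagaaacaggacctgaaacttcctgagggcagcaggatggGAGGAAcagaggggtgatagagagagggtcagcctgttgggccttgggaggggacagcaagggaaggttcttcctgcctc

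C1qc (chr4:136892865-136893164, minus strand): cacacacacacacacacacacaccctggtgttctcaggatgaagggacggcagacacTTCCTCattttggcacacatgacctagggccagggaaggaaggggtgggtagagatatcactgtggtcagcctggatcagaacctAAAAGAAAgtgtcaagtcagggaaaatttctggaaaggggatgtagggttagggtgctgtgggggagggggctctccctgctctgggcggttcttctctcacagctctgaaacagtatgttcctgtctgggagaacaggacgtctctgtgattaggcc

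C3ar1 (chr6:122856108-122856407, minus strand): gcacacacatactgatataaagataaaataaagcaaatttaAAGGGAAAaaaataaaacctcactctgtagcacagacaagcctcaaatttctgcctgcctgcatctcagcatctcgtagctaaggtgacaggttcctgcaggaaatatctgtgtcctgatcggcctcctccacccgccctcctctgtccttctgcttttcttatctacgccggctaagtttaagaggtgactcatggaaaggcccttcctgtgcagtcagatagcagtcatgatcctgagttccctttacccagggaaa

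C5ar1 (chr7:16259289-16259588, minus strand): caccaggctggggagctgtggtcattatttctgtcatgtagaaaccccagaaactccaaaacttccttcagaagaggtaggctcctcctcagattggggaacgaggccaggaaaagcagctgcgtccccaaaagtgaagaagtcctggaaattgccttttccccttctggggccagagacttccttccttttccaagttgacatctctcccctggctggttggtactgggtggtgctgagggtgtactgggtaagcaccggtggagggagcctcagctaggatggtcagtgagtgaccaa

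F7 (chr8:13025784-13026083, plus strand): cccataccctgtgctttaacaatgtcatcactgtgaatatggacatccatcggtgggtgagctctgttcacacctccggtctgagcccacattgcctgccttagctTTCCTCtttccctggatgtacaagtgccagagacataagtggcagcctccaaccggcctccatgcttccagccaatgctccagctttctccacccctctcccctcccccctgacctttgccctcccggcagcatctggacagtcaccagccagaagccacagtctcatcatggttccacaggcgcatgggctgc

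F10 (chr8:13037058-13037357, plus strand): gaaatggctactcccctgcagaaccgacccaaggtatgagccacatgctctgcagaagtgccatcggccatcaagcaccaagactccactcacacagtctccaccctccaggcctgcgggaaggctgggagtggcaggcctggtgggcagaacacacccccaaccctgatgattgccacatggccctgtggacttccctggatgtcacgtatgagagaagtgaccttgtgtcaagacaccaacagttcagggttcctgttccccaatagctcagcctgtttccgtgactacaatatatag

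GAGGAA stood in the windows of C1qb, C1qc and F7, and not in those of C3ar1, C5ar1 and F10. AANNGAAA stood in those of C1qc and C3ar1. Of the 22 genes with a promoter, 9 held GAGGAA and 6 held AANNGAAA in any of their windows. Of all 32851 windows in the table, 28.3% and 23.9% did. A match describes letters and shows no binding.

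On the high-fat diet the largest changes among these genes were those of the receptors C3ar1 and C5ar1, coagulation factor VII and the C1q chains. C3ar1 rose 32.1-fold, F7 14.2-fold, C5ar1 13.7-fold and the C1q chains 5.80-fold to 8.34-fold. C3ar1, F7 and C5ar1 were dim in chow arrays. On the log2(value + 16) scale, which damps dim values, they rose by 4.51, 3.235 and 3.29, beside 5.0, 3.82 and 3.77 on the scale used. Of the 32 genes, 15 rose and 3 fell. Of all genes tested, 12.9% rose and 13.1% fell, so the share that rose was 46.9% against that background and the share that fell 9.38%. The groups did not overlap for 13 of the 32 genes, against 22.5% of all genes. The median change was 1.04, beside -0.04 over all genes. These genes were chosen with earlier results of these data known, so the counts describe the list and test nothing about it. Bulk tissue cannot tell fewer cells of a type from less RNA per cell.

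**Figure D1:**
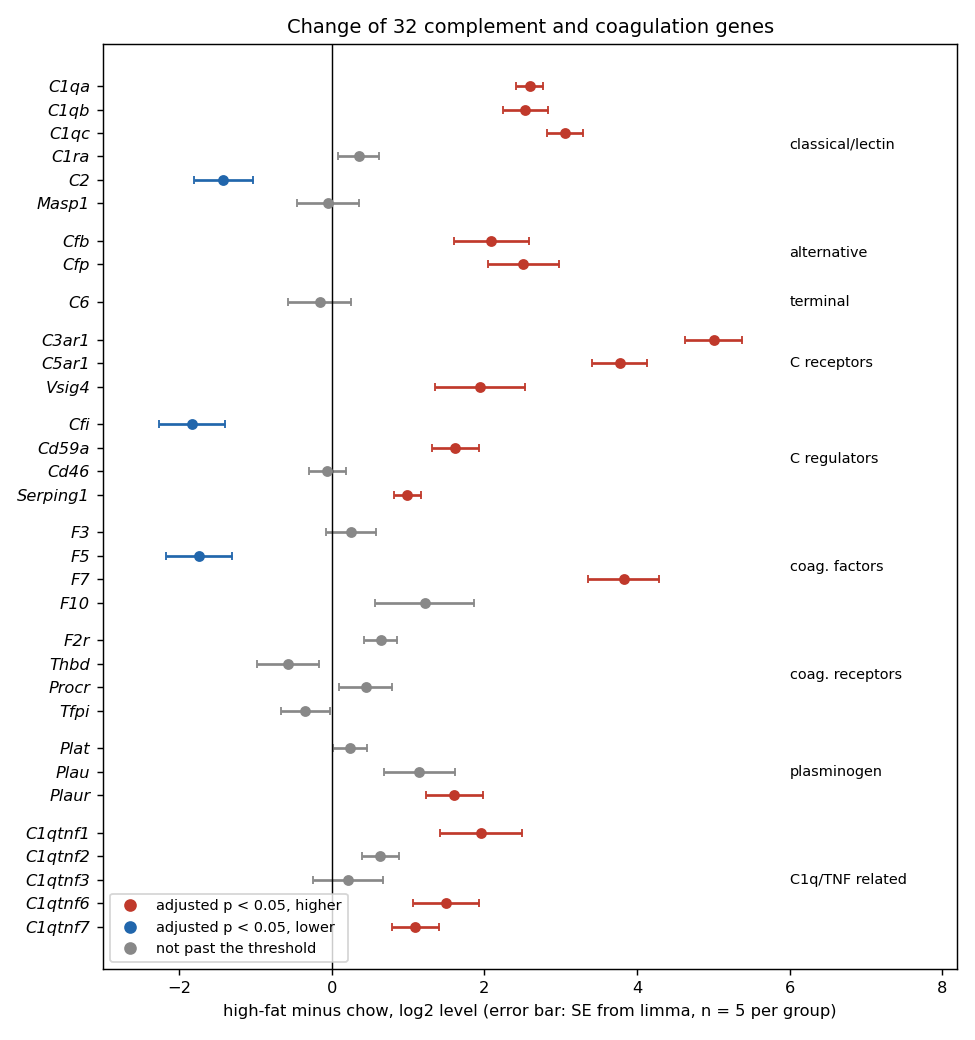
Change of each of the 32 genes on the high-fat diet (x axis, high-fat minus chow, log2 level; error bars are the SE from limma, n = 5 per group), ordered by role. Red points rose and blue points fell past the threshold, and C3ar1 has the largest change, at 5.0.

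The scaling between arrays moved these counts little but moved the background. For the values as deposited 17 genes rose and 3 fell, where 15.1% of all genes rose and 8.2% fell. With arrays centred on their medians 19 rose and 2 fell, where 24.3% of all genes rose and 7.92% fell. Under those scalings all genes had a median change of 0.08 and 0.21. The share of all called genes that were higher was 49.6% after quantile normalization, 64.8% for the values as deposited and 75.4% with centred medians. With chow arrays 1 and 2 left out, 14 of the 32 genes rose and 5 fell, and of all genes 18.5% rose and 19.8% fell. With the epididymis and testis mean as a covariate, 4 rose (C1qa, C1qc, C3ar1 and C5ar1) and 1 fell (C2), and the calls over all genes dropped to 2.85% higher and 1.12% lower. A covariate chosen after the data were seen, the mean of the hepatocyte genes, gave 20 that rose and none that fell by limma, also at an unadjusted p under 0.05 (0 genes), where 13.6% of all genes rose and 14.8% fell. C2, F5 and Cfi then had adjusted p = 0.367, 0.403 and 0.271. The hepatocyte mean also differed between the diets, so these lost calls settle nothing about their source.

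Recognition by C1q came first in the classical pathway, and all 3 chains rose together. C1qa, the A chain, was at 8.23, 8.50, 8.44, 8.49 and 8.82 in chow arrays 1 to 5 and at 10.61, 11.04, 11.32, 10.91 and 11.56 in high-fat arrays 1 to 5. C1qb was at 8.48, 8.58, 9.66, 9.73 and 9.91 on chow and at 11.53, 11.59, 12.17, 11.70 and 12.06 on the high-fat diet. C1qc was at 7.25, 7.70, 8.00, 8.04 and 8.44 on chow and at 10.41, 10.78, 11.19, 10.95 and 11.40 on the high-fat diet. Every high-fat array lay above every chow array for each chain, and high-fat array 1 was the lowest of its group for all 3. The changes were 2.59 for C1qa (SE 0.18, adjusted p = 6.04e-06), 2.54 for C1qb (SE 0.29, adjusted p = 0.000153) and 3.06 for C1qc (SE 0.23, adjusted p = 1.28e-05). The other C1qb probe sets rose by 3.60 and 2.74. C1qb lost its call with the epididymis and testis covariate (2.14, adjusted p = 0.0640).

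Neither the gene of C1r, a protease that C1q activates, nor that of a lectin pathway protease passed in the fit reported. C1ra, which encodes the C1r protease, was at 7.95, 7.31, 8.44, 8.73 and 8.57 on chow and at 8.06, 8.47, 8.61, 8.68 and 8.93 on the high-fat diet, and its change of 0.35 did not pass (SE 0.26, adjusted p = 0.369). It passed with arrays centred on their medians (0.75, adjusted p = 0.0424) and with the hepatocyte covariate (1.10, adjusted p = 0.00716), and turned sign without chow arrays 1 and 2 (-0.03) and with the epididymis and testis covariate (-0.44). Masp1, a protease of the lectin pathway, was dim and differed by -0.05 (SE 0.40, adjusted p = 0.943). Its other 4 probe sets differed by -1.10 to -0.60, and none passed.

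C2, the protease of the classical C3 convertase, went the other way. It was at 9.33, 7.77, 9.49, 10.17 and 10.13 on chow and at 8.13, 7.92, 7.90, 8.18 and 7.66 on the high-fat diet. Chow array 2 lay among the high-fat arrays and the other 4 chow arrays lay above them. C2 fell by 1.42 (SE 0.39, adjusted p = 0.0214; 2-sided exact permutation p = 0.0397). Without high-fat array 5 the call was lost (-1.34, adjusted p = 0.0540), as it was with centred medians (-1.03, adjusted p = 0.0608). In the other C2 probe sets the differences were -1.11 and -0.82, neither of them past the threshold (adjusted p = 0.127 and 0.215). With the hepatocyte covariate C2 differed by -0.63 (adjusted p = 0.367), and with the epididymis and testis covariate it fell by 2.79 (adjusted p = 0.0301).

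Cfb, factor B, is the alternative pathway's counterpart of C2 and lies beside it on chromosome 17. Cfb was at 7.08, 6.16, 7.89, 8.90 and 8.96 on chow and at 10.14, 10.26, 9.43, 10.06 and 9.57 on the high-fat diet. All high-fat arrays were above all chow arrays, and Cfb rose by 2.09 (SE 0.49, adjusted p = 0.00947). The neighbours thus changed in opposite directions. The log2 level of Cfb minus that of C2 was between -2.25 and -1.17 in the chow arrays and between 1.53 and 2.34 in the high-fat arrays, a change of 3.51 (2-sided exact permutation p = 0.00794, the smallest that 5 arrays against 5 can give, before and after adjustment for the 2 neighbour ratios tested). Both ratios were picked with the genes' values known, so their p-values describe the separation and test nothing further. Each probe set has its own offset, so only the change in the ratio can be read. Within the chow group both genes were lowest in array 2.

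**Figure D2:**
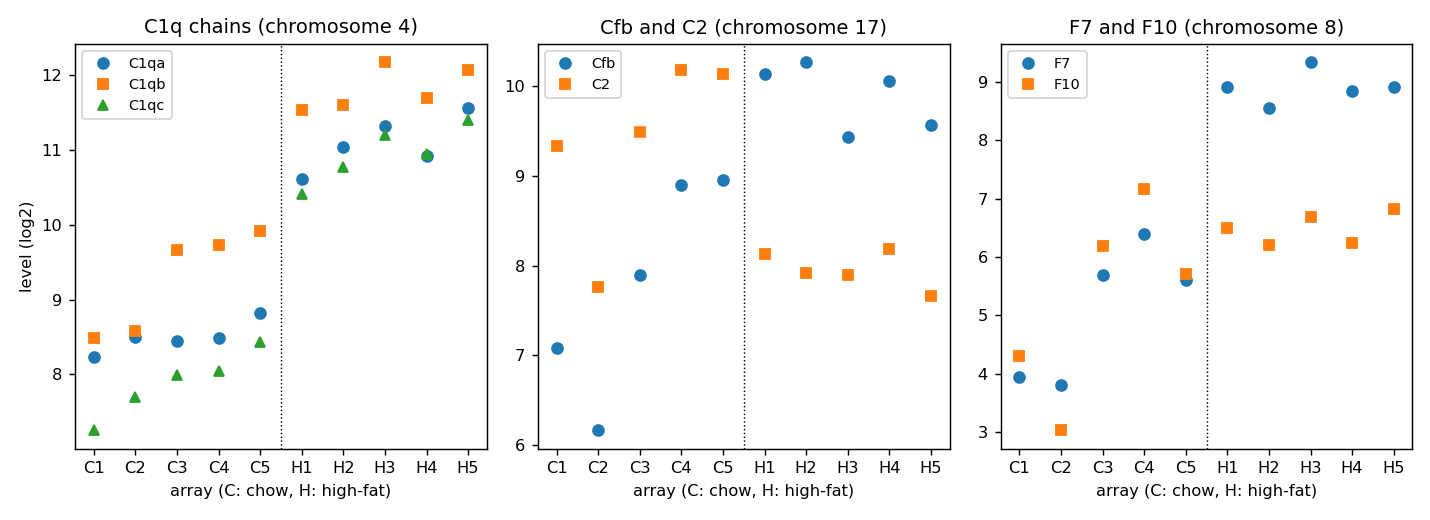
Level (y axis, log2) of neighbouring genes in each array (x axis, C1 to C5 chow, H1 to H5 high-fat); each point is 1 array. The C1q chains rose together, Cfb rose while C2 fell, and F7 rose by 3.82 beside a change of 1.22 in F10 that did not pass. Each gene is shown by its brightest probe set, and another F10 probe set rose by 2.12.

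Properdin, encoded by Cfp, stabilizes the alternative convertase. Cfp was at 5.97, 4.27, 5.52, 6.87 and 7.22 on chow and at 8.29, 8.79, 8.39, 8.37 and 8.55 on the high-fat diet, with no overlap. It rose by 2.51 (SE 0.46, adjusted p = 0.00279), but its other probe set differed by -0.21 (adjusted p = 0.651). With the epididymis and testis covariate neither Cfb (0.85, adjusted p = 0.631) nor Cfp (0.56, adjusted p = 0.633) passed. C6, a subunit of the membrane attack complex, differed by -0.16 (SE 0.42, adjusted p = 0.819) and ranged from 6.15 to 8.48 on chow and from 6.87 to 8.01 on the high-fat diet. Its sign turned with the values as deposited and with centred medians.

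Of the 3 complement receptors, all rose, and C3ar1 had the largest change of the 32 genes. C3ar1, the receptor of the C3 fragment that attracts myeloid cells, was at 4.52, 4.76, 5.33, 5.54 and 6.78 on chow and at 9.87, 10.27, 10.74, 10.28 and 10.77 on the high-fat diet. The gap between the groups was wider than the range within either. C3ar1 rose by 5.0 (SE 0.38, adjusted p = 1.22e-05), and its other probe sets by 4.56 and 5.08. C5ar1, the receptor of the C5 fragment, was at 4.46, 4.37, 5.97, 5.89 and 5.97 on chow and at 8.69, 8.88, 9.49, 9.05 and 9.41 on the high-fat diet. It rose by 3.77 (SE 0.36, adjusted p = 5.15e-05), and its other probe set by 4.25. Chow arrays 1 and 2 were the lowest of all arrays for both receptors.

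Vsig4, a complement receptor of tissue-resident macrophages, changed less firmly. It was dim, at 1.94, 3.68, 4.33, 5.30 and 4.29 on chow and at 4.96, 5.23, 5.79, 6.66 and 6.63 on the high-fat diet. Chow array 4 overlapped the high-fat range. Vsig4 rose by 1.95 (SE 0.59, adjusted p = 0.0326), and by 1.18 on the log2(value + 16) scale, which damps dim values. It did not pass without high-fat array 3, 4 or 5 (adjusted p = 0.0650, 0.0827 and 0.0818) or without chow arrays 1 and 2 (1.22, adjusted p = 0.0519).

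Macrophage markers moved with these genes. The mean of 10 macrophage markers was 7.10, 7.28, 7.75, 7.92 and 8.25 in the chow arrays and 10.01, 10.31, 10.53, 10.36 and 10.68 in the high-fat arrays, a difference of 2.72. Of the 10 markers 8 rose and none fell. Mertk (-0.23) and Cd163 (0.69) did not pass and hold the mean down. The list mean put the chow arrays in the order 1, 2, 3, 4 and 5 from low to high, and C1qc and C3ar1 gave that same order. Set against the list mean within each array, the C1q chains changed by -0.13, -0.18 and 0.34 for A, B and C, and Cfp by -0.21. C3ar1 and C5ar1 changed by 2.29 and 1.05 more than the mean, with no overlap between the groups, and Plaur by 1.11 less, also with no overlap. Single markers rose as far as the receptors. Cd68 rose by 5.17, beside 5.0 for C3ar1, and Tyrobp by 4.32 and Adgre1 by 4.19, beside 3.77 for C5ar1. The other markers rose less than C5ar1 or did not pass. F7 changed by 1.11 and Vsig4 by -0.77 relative to the mean, and for both the groups overlapped. The 6 neutrophil markers measured had means of 2.46 to 3.27 on chow and 3.83 to 4.76 in the high-fat arrays, and 3 of them rose. The part of macrophage and neutrophil number in these changes was not tested.

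**Figure D3:**
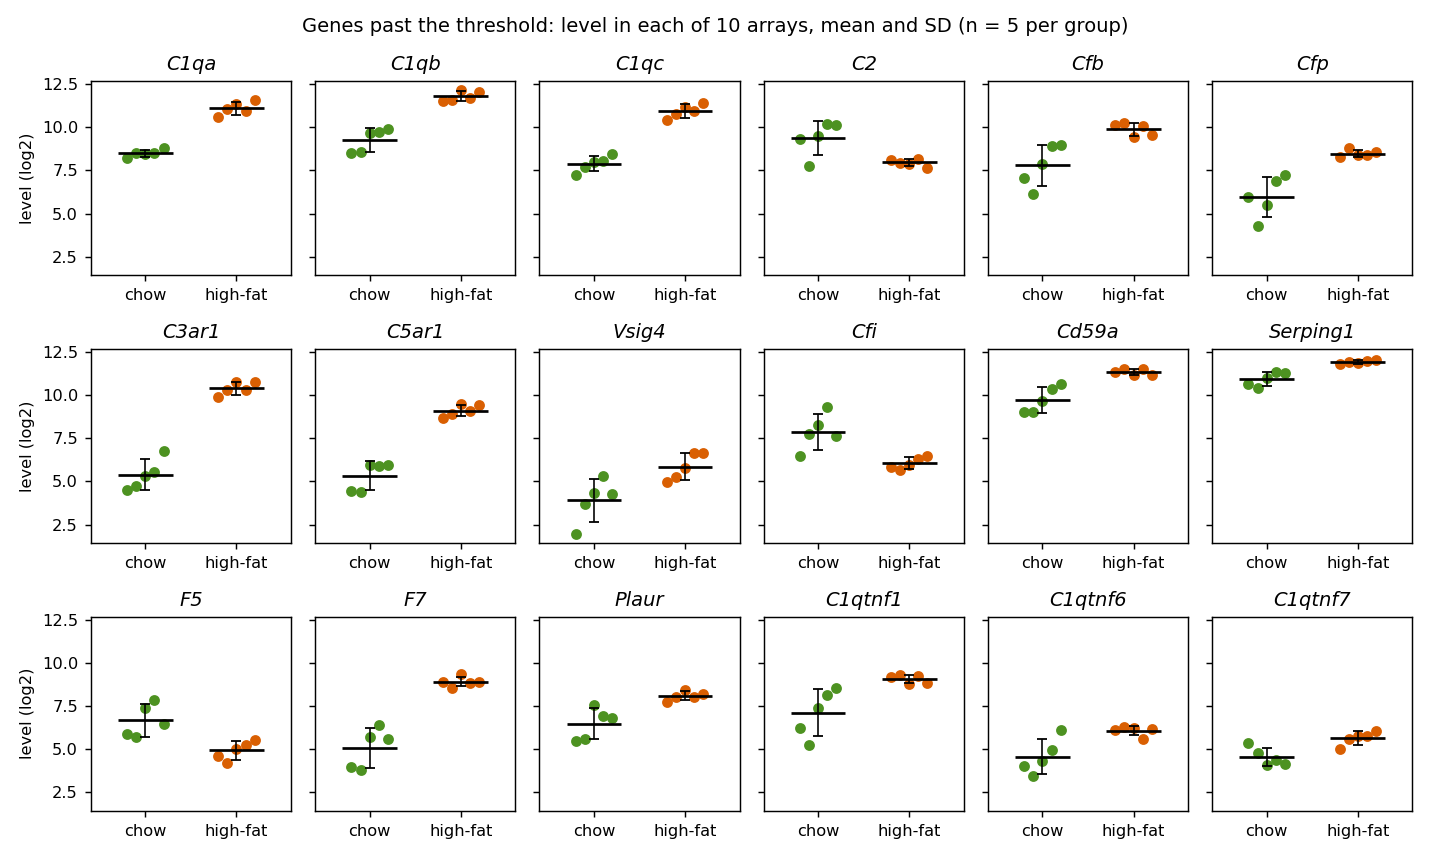
Level (y axis, log2) of the 18 genes past the threshold in each array (points), by diet, with the mean and SD (n = 5 per group). C3ar1, C5ar1 and F7 show the widest gaps, and C2, Cfi and F5 are lower on the high-fat diet.

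Regulators of complement divided. Cd59a, which blocks the membrane attack complex on the cell surface, was at 9.01, 9.01, 9.64, 10.36 and 10.63 on chow and at 11.36, 11.52, 11.17, 11.53 and 11.17 on the high-fat diet. Serping1, the C1 inhibitor, was at 10.65, 10.39, 10.97, 11.32 and 11.29 on chow and at 11.80, 11.89, 11.84, 12.00 and 12.03 on the high-fat diet. Neither overlapped between the groups. Cd59a rose by 1.62 (SE 0.30, adjusted p = 0.00303) and Serping1 by 0.99 (SE 0.18, adjusted p = 0.00223), and both lost their calls with the epididymis and testis covariate (1.04 and 0.52, adjusted p = 0.341 and 0.373). Cd46, a membrane cofactor for factor I, was dim at 4.44 to 4.91 in chow arrays and 4.0 to 4.85 in high-fat arrays, with a change of -0.06 (SE 0.24, adjusted p = 0.887).

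Cfi, factor I, the protease that inactivates C3b, fell. It was at 6.45, 7.75, 8.27, 9.31 and 7.61 on chow and at 5.81, 5.68, 5.95, 6.29 and 6.50 on the high-fat diet. Chow array 1 lay just under high-fat array 5, and the other 4 chow arrays lay above all high-fat arrays. Cfi fell by 1.83 (SE 0.43, adjusted p = 0.0101). The drop was 2.35 without chow arrays 1 and 2 (adjusted p = 0.000378). With the hepatocyte covariate the difference was -0.66 (adjusted p = 0.271), and with the epididymis and testis covariate -1.46 (adjusted p = 0.378).

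Among coagulation factors, F7 and F5 changed in opposite directions. F7, factor VII, was at 3.95, 3.80, 5.69, 6.40 and 5.60 on chow and at 8.91, 8.56, 9.34, 8.85 and 8.91 on the high-fat diet. F5, factor V, the cofactor of factor X, was at 5.88, 5.71, 7.41, 7.83 and 6.48 on chow and at 4.60, 4.19, 5.01, 5.27 and 5.55 on the high-fat diet. Neither gene overlapped between the groups, and chow arrays 1 and 2 were the lowest of their group for both. F7 rose by 3.82 (SE 0.47, adjusted p = 0.000214), and F5 fell by 1.74 (SE 0.44, adjusted p = 0.0138). The other F5 probe set fell by 1.85 (adjusted p = 0.00470). With the epididymis and testis covariate F7 differed by 3.22 (adjusted p = 0.0772) and F5 by -2.16 (adjusted p = 0.186).

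F10, factor X, follows F7 in the pathway and on chromosome 8. F10 was at 4.30, 3.03, 6.19, 7.16 and 5.71 on chow and at 6.50, 6.21, 6.69, 6.25 and 6.82 on the high-fat diet. The high-fat arrays lay within the upper part of a wide chow range, and the change of 1.22 did not pass (SE 0.65, adjusted p = 0.198). Of its other probe sets, one rose by 2.12 (adjusted p = 0.0107) and one differed by 2.52 without passing (adjusted p = 0.0642). The log2 level of F7 minus that of F10 was -0.76 to 0.77 in chow arrays and 2.09 to 2.64 in high-fat arrays, a change of 2.61 (2-sided exact permutation p = 0.00794, again the smallest that can be reached). That ratio rests on the F10 probe set with the smallest change and was not computed for the others. F3, tissue factor, was at 7.35 to 9.20 in chow arrays and 8.13 to 8.55 in high-fat arrays and did not pass (0.26, SE 0.33, adjusted p = 0.613). Its sign turned without chow arrays 1 and 2 (-0.24).

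Hepatocyte markers fell between the groups, as F5 and Cfi did and F10 did not, and within a group they varied beside these genes. The mean of 7 hepatocyte genes was 8.71, 8.82, 11.94, 12.34 and 11.32 in the chow arrays and 7.72, 7.12, 7.76, 7.66 and 9.51 in the high-fat arrays. Alb, which encodes albumin, was at 9.36, 9.57, 12.88, 13.04 and 12.42 on chow and at 8.79, 7.71, 8.71, 8.29 and 10.77 on the high-fat diet. Of the 7 genes 6 fell and none rose, while the groups overlapped for all 7. F5 and F10 were highest in chow array 4, next in arrays 3 and 5, and lowest in arrays 1 and 2, as the hepatocyte mean was. Cfi was also highest in arrays 4 and 3, but array 5 (7.61) lay below array 2 (7.75). Within the high-fat group F5, F10 and Cfi were each highest in array 5 and lowest in array 2, and so was the hepatocyte mean. C2 was instead lowest in high-fat array 5. With the hepatocyte mean as a covariate, F5 differed by -0.41 (adjusted p = 0.403), while F10 rose by 3.20 (adjusted p = 0.00111) and F7 by 5.24 (adjusted p = 1.18e-05). The hepatocyte mean itself differed between the diets (2-sided exact permutation p = 0.0238), so calls lost or gained with it settle nothing about their source. The part of hepatocyte transcripts in these changes was not tested.

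**Figure D4:**
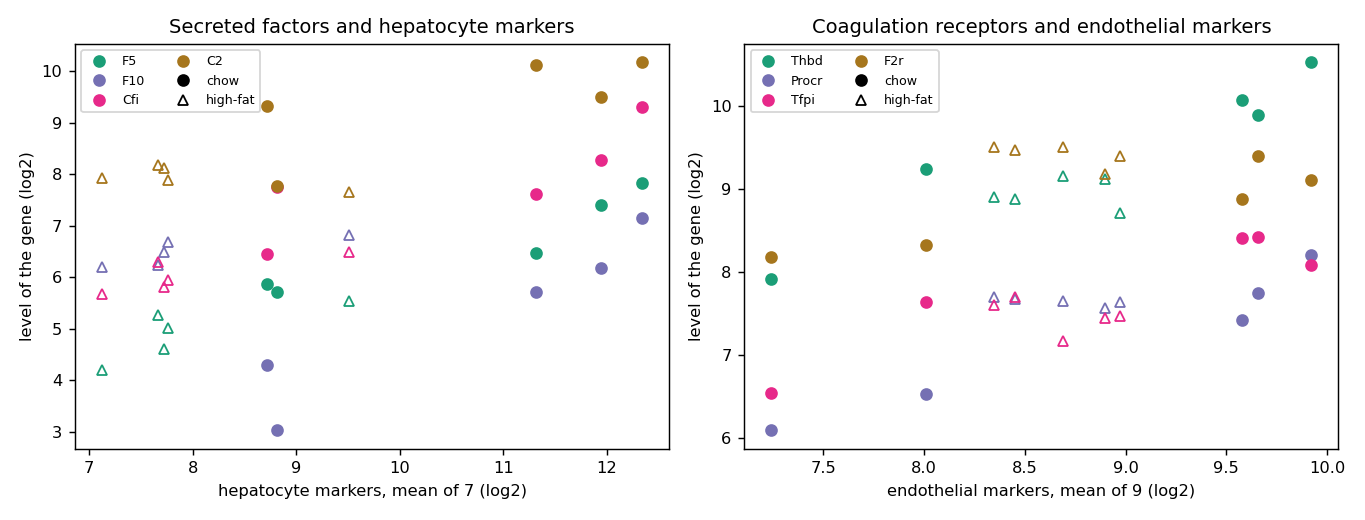
Level of each gene (y axis, log2) against the mean level of 7 hepatocyte markers (left, x axis) or 9 endothelial markers (right, x axis); filled circles are chow arrays and open triangles high-fat arrays. F5 is highest in the 3 chow arrays with hepatocyte means of 11.32 to 12.34, F10 and Cfi are highest in chow array 4, and Thbd, Procr and Tfpi are lowest in chow array 2, where the endothelial mean is 7.24.

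Of the 4 coagulation receptors and anticoagulants, none passed in limma, and 1, F2r, had an unadjusted p under 0.05. Thbd, thrombomodulin, was at 9.25, 7.92, 10.53, 10.08 and 9.90 on chow and at 9.13, 8.72, 8.89, 9.17 and 8.91 on the high-fat diet. Its change was -0.57 (SE 0.40, adjusted p = 0.334). Tfpi, the inhibitor of the tissue factor pathway, was at 7.64, 6.55, 8.09, 8.42 and 8.43 on chow and at 7.45, 7.47, 7.70, 7.18 and 7.60 on the high-fat diet. Its change was -0.34 (SE 0.32, adjusted p = 0.480). Chow array 2 was the lowest of all arrays for both. Without it both fell, Thbd by 0.98 (adjusted p = 0.00745) and Tfpi by 0.66 (adjusted p = 0.0183), and the number of fallen genes among the 32 went from 3 to 5. The 9 endothelial markers had means of 8.01, 7.24, 9.92, 9.58 and 9.66 on chow and of 8.35 to 8.97 on the high-fat diet. With all arrays in the fit, none of these markers passed in limma (0 at an unadjusted p under 0.05). Their mean was also lowest in chow array 2, and a fit of these markers without that array was not examined.

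Procr, the endothelial protein C receptor, ranged from 6.10 to 8.21 on chow and from 7.57 to 7.70 on the high-fat diet. Its change of 0.45 did not pass (SE 0.35, adjusted p = 0.385) and was -0.14 without chow arrays 1 and 2. F2r, a thrombin receptor, was at 8.33, 8.18, 9.11, 8.88 and 9.40 on chow and at 9.19, 9.41, 9.47, 9.51 and 9.52 on the high-fat diet. Only chow array 5 overlapped the high-fat range. The change of 0.64 missed the threshold (SE 0.22, adjusted p = 0.0516), while the other F2r probe set rose by 1.11 (adjusted p = 0.00385). Without chow array 3 or chow array 5 the change was 0.72 and 0.79 and passed (adjusted p = 0.0497 and 0.0129).

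In plasminogen activation, the urokinase receptor rose. Plaur, which holds urokinase at the cell surface, was at 5.50, 5.58, 7.57, 6.91 and 6.82 on chow and at 7.71, 8.04, 8.42, 8.03 and 8.21 on the high-fat diet. The groups did not overlap, and Plaur rose by 1.61 (SE 0.37, adjusted p = 0.00926). Plau, urokinase itself, was at 10.24, 7.96, 7.94, 7.59 and 7.94 on chow and at 8.61, 9.52, 9.81, 9.41 and 10.06 on the high-fat diet. Chow array 1 was the highest of all 10 arrays, and the other 4 chow arrays lay below every high-fat array. Over all arrays the change of 1.15 did not pass (SE 0.47, adjusted p = 0.0979). Without chow array 1 Plau rose by 1.63 (adjusted p = 0.00151), and the other Plau probe set rose by 2.02 over all arrays (adjusted p = 0.0288). With the epididymis and testis covariate the change was -0.08 (adjusted p = 0.972). The means of the mesothelial and smooth muscle lists were also highest in chow array 1, at 8.54 and 12.41. Plat, the tissue-type activator, differed by 0.24 (SE 0.23, adjusted p = 0.492) and ranged from 7.09 to 8.23 on chow and from 7.61 to 8.34 on the high-fat diet.

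Of the 5 C1q and TNF related genes, 3 rose and none fell. C1qtnf1 was at 6.23, 5.24, 7.36, 8.12 and 8.54 on chow and at 9.18, 9.28, 8.76, 9.23 and 8.83 on the high-fat diet. The groups did not overlap, and C1qtnf1 rose by 1.95 (SE 0.54, adjusted p = 0.0212), with 2.26 in its other probe set. Without high-fat array 2 it just missed the threshold (1.90, adjusted p = 0.0507). C1qtnf6 was at 4.03, 3.46, 4.33, 4.94 and 6.11 on chow and at 6.09, 6.28, 6.23, 5.60 and 6.17 on the high-fat diet. C1qtnf7 was at 5.38, 4.76, 4.07, 4.39 and 4.14 on chow and at 5.03, 5.57, 5.79, 5.78 and 6.05 on the high-fat diet. Chow array 5 overlapped for C1qtnf6 and chow array 1 for C1qtnf7.

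C1qtnf6 rose by 1.5 (SE 0.43, adjusted p = 0.0259) and C1qtnf7 by 1.10 (SE 0.30, adjusted p = 0.0220), and by 1.0 and 0.73 on the log2(value + 16) scale. C1qtnf6 did not pass without chow array 1 or 3 or high-fat array 1, 2, 3 or 5 (adjusted p from 0.0529 to 0.0618), and C1qtnf7 did not without chow array 3 or high-fat array 3, 4 or 5 (adjusted p from 0.0521 to 0.0603). The other C1qtnf7 probe set differed by 0.70 (adjusted p = 0.0880). C1qtnf2 ranged from 4.77 to 5.28 on chow and from 5.26 to 6.20 on the high-fat diet and did not pass (0.63, SE 0.24, adjusted p = 0.0780). C1qtnf3, which was dim, differed by 0.21 (SE 0.46, adjusted p = 0.778). Fibroblast and progenitor markers rose in part. The mean of 9 such markers was 8.27 to 9.32 in chow arrays and 9.32 to 10.19 in high-fat arrays (2-sided exact permutation p = 0.0159), and 4 of the 9 rose and none fell. Those that rose were Col1a1 (2.26) and Col3a1 (1.65), collagen chains, Lum (3.08), a matrix proteoglycan, and Pi16 (1.70). The other 5 did not pass: Pdgfra (-0.02), Pdgfrb (0.18), Dcn (0.17), Cd34 (0.55) and Dpp4 (-1.08). Within chow, C1qtnf1 and C1qtnf6 were lowest in array 2, next in array 1 and highest in array 5, as the list mean was. C1qtnf7 was instead highest in arrays 1 and 2, where the list mean was lowest (8.82 and 8.27). The part of fibroblasts and progenitors in these changes was not tested.

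The 32 genes varied more among chow mice than among high-fat mice. The SD was larger on chow for 29 of the 32, with a median SD of 0.88 for chow and 0.30 for the high-fat diet. Over all genes tested the SD was larger on chow for 76.8%, with medians of 0.57 and 0.27. Chow array 2 was the lowest chow array for 20 of the 32 genes and chow array 1 for 9. The adipocyte and endothelial marker means were also lowest of all arrays in chow array 2, at 8.79 and 7.24. Only C1qa, C1qc, C3ar1 and C5ar1 kept their direction and their call under every alternative run for them. C1qb, Cfb, Cfp, Cd59a, Serping1, F7 and Plaur lost their call only with the epididymis and testis covariate, which cannot be told apart from diet.

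**Figure D5:**
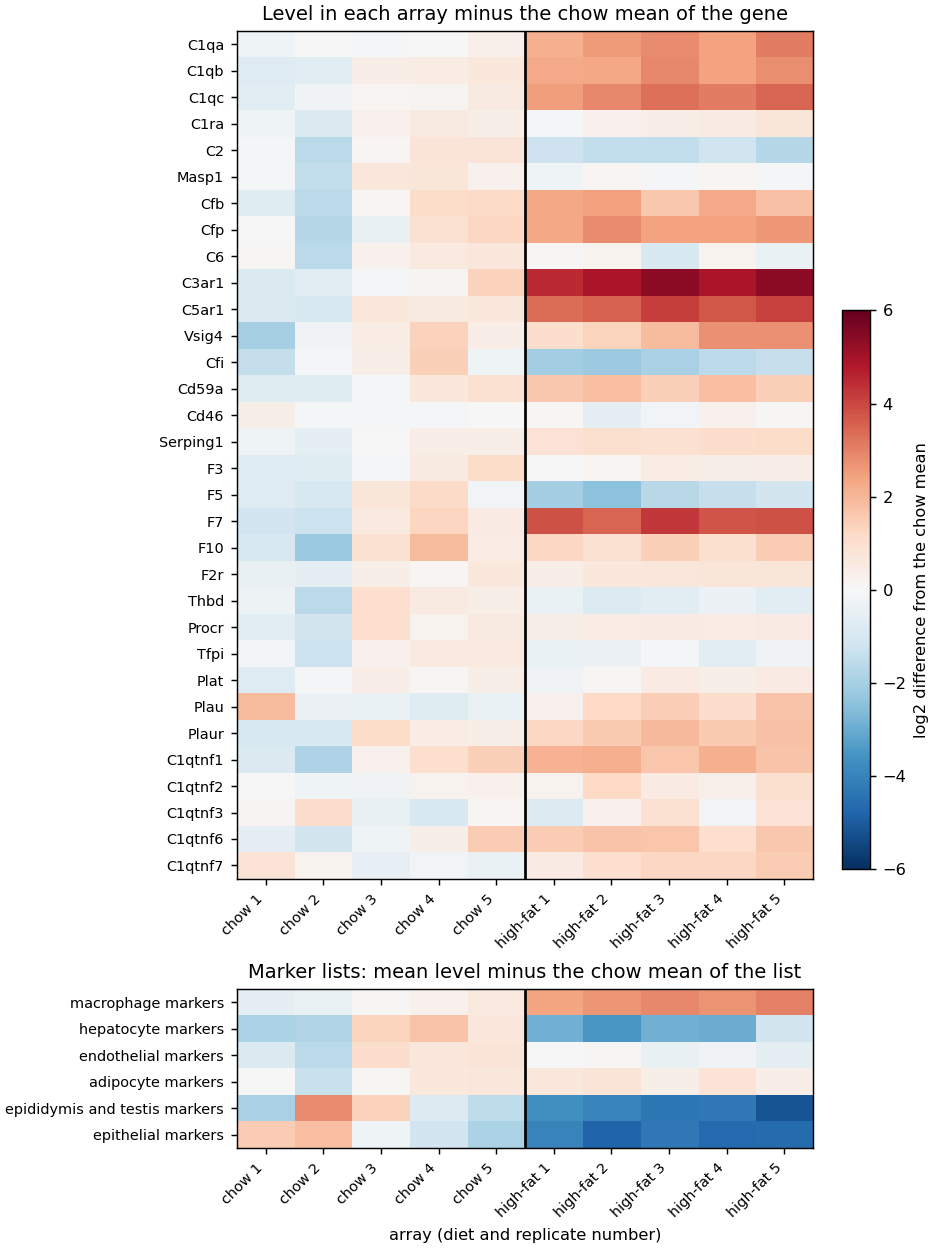
Level of each of the 32 genes (upper rows) and mean of 6 marker lists (lower rows) in each array, minus the chow mean of that row (colour, log2 difference; red higher, blue lower); columns are arrays. The rows of C3ar1, C5ar1, F7 and the C1q chains are red in all 5 high-fat arrays, and chow array 2 is blue in most rows.

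Of 31 other complement genes measured, 5 rose (16.1%, beside 12.9% of all genes) and 8 fell (25.8%, beside 13.1%), with a median change of -0.47. Itgb2 and Itgax, subunits of the complement receptor integrins, rose by 4.79 (SE 0.31, adjusted p = 4.65e-06) and 4.63 (SE 0.49, adjusted p = 8.98e-05). C4bp, which binds C4 and limits the classical pathway, fell by 5.25 (SE 0.76, adjusted p = 0.000624), and Cpn1, a carboxypeptidase that inactivates complement fragments, fell by 4.57 (SE 0.66, adjusted p = 0.000631). C4bp was at 9.41, 12.52, 10.91, 8.84 and 7.71 on chow and at 3.98 to 5.21 on the high-fat diet. The epididymis and testis mean was likewise highest in chow arrays 2 and 3, at 12.02 and 10.58.

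Of 36 other coagulation genes measured, 5 rose (13.9%) and 7 fell (19.4%), shares near those of all genes, with a median change of -0.53. The largest falls were those of F12, factor XII (-4.10, adjusted p = 0.0217), Fga, a fibrinogen chain (-3.80, adjusted p = 0.00394), Proc, protein C (-3.72, adjusted p = 0.00203), and Serpinf2, the plasmin inhibitor (-3.51, adjusted p = 0.00780). Fga also belongs to the hepatocyte list. On the log2(value + 16) scale these changes were -1.59, -3.26, -2.07 and -2.52, and that of Cpn1 was -2.23. F12, Fga and Proc were highest in chow array 4, as the hepatocyte mean was. Serpinf2 was instead highest in chow array 2 (9.07), where the hepatocyte mean was 8.82. Of 16 other genes with a C1q-like head, with a median change of -0.13, 2 rose (12.5%), Emilin2 (1.95, adjusted p = 0.0204) and Emilin1 (0.91, adjusted p = 0.0415), both matrix glycoproteins, and C1qtnf4 fell by 3.64 (adjusted p = 0.00423; -1.83 on the log2(value + 16) scale).

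Over these 3 lists together, with 31, 36 and 16 genes measured, 12 genes rose and 16 fell, where 12.9% of all genes rose and 13.1% fell. The number that fell moved with single arrays: it went up from 16 to 27 without chow array 1 and to 30 without chow array 2. Of all genes, 12.9% and 15.6% fell in those fits. With the hepatocyte covariate 19 rose and 9 fell, where 13.6% of all genes rose and 14.8% fell. With the epididymis and testis covariate 2 rose and none fell by limma, with 11 lower at an unadjusted p under 0.05. Of all genes, 2.85% rose and 1.12% fell with that covariate.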

How the data were processed

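RNA from 10 mice was measured on 10 arrays. The authors deposited a linear intensity per array for 45101 probe sets. Biotin-labelled cRNA was hybridized, per the labels' protocols. For the summary algorithm, scaling and scanner, nothing is given in the sources used here. Groups come from the sample titles.

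Values under the 5th percentile (0.658) were set to it before the log2 transform. Array medians then differed by 0.613, above a limit of 0.5, so the arrays were quantile normalized. The platform annotation gave 1 symbol for 34945 probe sets and several for 932, which named no gene. Control probe sets were left out, and no detection calls were used. The tests used limma (version 3.58.1, R 4.3.3; lmFit, eBayes with a trend), with Benjamini-Hochberg adjustment over 18193 genes; single ratios had a 2-sided exact permutation test. The procedure was tested on simulated data. The genes, lists, motifs and alternatives were chosen with earlier results of these data known. All 36 genes of the list are named; of each list of other pathway genes, the 4 with the largest changes past the threshold, or at least 2.

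The alternatives were 2 other scalings, a floor at the 10th percentile, log2(value + 16), no trend, array weights, only genes above the median of all probe sets, other choices of probe set, the replicate number as a block, each array left out in turn, chow arrays 1 and 2 left out, and the mean of epididymis and testis genes as a covariate. The hepatocyte mean as a covariate was added after seeing the data.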

Additional observations from a re-analysis of the deposited data

Results flagged for a closer look

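In 3 of 86 groups of 5 arrays tested (the genes of the list and the named genes of the same pathways, in each diet group), the highest or lowest array stood apart from the other 4 by Dixon's test, where chance gives about 1 in 20. C6 was at 6.15 in chow array 2, with the other chow arrays at 7.88 to 8.48. Cd46 was at 4.91 in chow array 1, with the others at 4.44 to 4.57. Plau was at 10.24 in chow array 1, with the others at 7.59 to 7.96.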

How the results depend on the processing

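Of the 18 genes past the threshold, 4 kept direction and call under all alternatives run for them. The count of genes of the list that fell, 3 in the fit reported, was 5 with array weights and without chow arrays 1 and 2, and 2 to 5 with each array left out. With the epididymis and testis covariate 4 rose and 1 fell, and with the hepatocyte covariate 0 fell. The background moved as well. Of all genes, 13.1% fell in the fit reported, 19.4% with array weights and 19.8% without chow arrays 1 and 2. The share that fell was 9.86% to 15.6% with each array left out, 14.8% with the hepatocyte covariate and 1.12% with the epididymis and testis covariate. With centred medians 24.3% of all genes rose. Of the other pathway genes, 20 rose with centred medians; 37 fell with array weights and 40 without chow arrays 1 and 2; 2 rose and 0 fell with the epididymis and testis covariate; 19 rose and 9 fell with the hepatocyte covariate; with each array left out 11 to 30 fell. The labels do not say that a replicate number pairs mice. Deviations of same-numbered arrays correlated at -0.02 to 0.01, which cannot show whether mice were paired. With the replicate block 14 genes of the list rose and 3 fell; C1qtnf6 and C1qtnf7 did not pass (adjusted p = 0.0505 and 0.0848) and F2r did (adjusted p = 0.0435).

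Signs turned only for genes that had not passed, with causes not tested. These were C6 for the values as deposited (0.053) and with centred medians (0.19), and Tfpi with centred medians (0.0099); F3 with array weights (-0.12); Plat with the mean of all probe sets (-0.17); without chow arrays 1 and 2, C1ra (-0.027), Cd46 (0.0065), F3 (-0.24), Procr (-0.14) and Plat (-0.038); with the epididymis and testis covariate, C1ra (-0.44), F3 (-0.48), F10 (-0.16) and Plau (-0.083); and with the hepatocyte covariate, Masp1 (0.82), C6 (0.53), Thbd (0.47), Tfpi (0.47) and C1qtnf3 (-0.31). With each array left out the ranges were -0.14 to 0.071 for Cd46, -0.42 to 0.13 for Masp1, -0.57 to 0.0297 for C6 and -0.014 to 0.48 for C1qtnf3. Without a detection call, the lowest intensities give no statement on presence.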
